A study of Mus musculus with 2 samples.

Results

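Accessible chromatin was examined around 6 microRNA genes of striated muscle, Mir206, Mir133b, Mir1a-1, Mir133a-2, Mir1a-2 and Mir133a-1, out of 2202 microRNA genes in the annotation. The genes were chosen by name. They form 3 pairs, and each pair counts as 1 locus, because its members lie 3.69, 9.25 and 2.50 kb apart and share nearly all of their peaks. Every peak and footprint from 50 kb upstream to 50 kb downstream of each pair was taken, which gave 45 of 97499 peaks in replicate 1 and 28 of 61664 peaks in replicate 2. The assay was DNase-seq, in which DNase I cuts open chromatin, a peak is a stretch with many cuts, and a footprint is a short protected stretch of DNA within such cuts. Both libraries came from the gastrocnemius, a calf muscle, of male B6CASTF1/J mice aged 25 days, with no treatment named. The animals are F1 hybrids of C57BL/6 and CAST, while positions and sequences are those of the C57BL/6 reference, mm10. The biosample descriptions number the 2 males differently, but both carry the same donor identifier, so the spread below is between these 2 samples. With 1 group of 2 libraries there was no comparison of conditions and no test.

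A microRNA is a short RNA cut in steps from a longer primary transcript, and it lowers the output of messenger RNAs that match its seed, bases 2 to 8. miR-1 and miR-206 share a seed and are known for promoting differentiation of muscle cells, while miR-133 is known for effects on proliferation and on the same differentiation programme. Mir1a-1 with Mir133a-2, and Mir1a-2 with Mir133a-1, are known as pairs active in heart and skeletal muscle. Mir206 with Mir133b is the pair known mainly from skeletal muscle, from satellite cells, from slow fibres and from regenerating or denervated fibres.

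The mature sequences below show how the arms are related. They come from RefSeq, build GRCm38.p6. Sequences of Mir1a-2 and Mir133a-1 were left out of the selection. For the other genes, the RefSeq sequences used held none for Mir133a-2 and only the 5p arm for Mir1a-1. That gave 5 mature sequences for 3 of the 6 genes. They are written 5′ to 3′ as RNA, with the seed in capitals.
miR-206-3p: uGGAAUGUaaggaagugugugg
miR-206-5p: aCAUGCUUcuuuauauccucaua
miR-1a-1-5p: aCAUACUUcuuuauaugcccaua
miR-133b-3p: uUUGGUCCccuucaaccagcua
miR-133b-5p: gCUGGUCAaacggaaccaaguc
The 5p arms of Mir206 and Mir1a-1 were identical at 20 of 23 bases. They differed by G5A, C17G and U19C, counted from 1 at the 5′ end with the base of the Mir206 arm first, and the first of these lies in the seed. Among 1738 mature mouse sequences in the table, the seed of miR-206-3p was also that of miR-6349 and miR-6382, and the seeds of the other 4 were found once each. miR-1a-3p and miR-133a were not among the sequences compared, so sharing of a seed with them was not looked up here. A seed found once in this table is therefore not shown to be unique in mouse, nor among the 6 genes.

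The deposited signal of a peak was a whole multiple of 0.00591 in replicate 1 and of 0.00854 in replicate 2, to within 0.00847 and 0.00581 of a whole number of steps. Read as tags scaled to library size, these steps correspond to totals of 169 and 117 M tags, a reading of the values that the labels do not state. Intervals below are 95% Poisson intervals on those tags, cover counting error only, and are on the deposited scale unless stated. Median peak signal was 0.674 in replicate 1 and 0.974 in replicate 2. Replicate 1 thus listed more and weaker peaks. Division by the library median, used below, therefore raises replicate 1 against replicate 2 at every region. All 6 skeletal muscle markers, among them Acta1, Ckm and Myod1, had a peak within 1 kb of a start in both libraries, where 66.5 and 64.2% of 21911 protein-coding genes did. Of 4 cardiac markers, Nkx2-5, Nppa and Myh6 had none in either library, and Myl7 had one in replicate 1 alone. The tissue is whole muscle, and all 3 endothelial markers, both neuronal markers, 1 of 3 smooth muscle markers (Myh11), 1 of 3 leukocyte markers (Spi1) and 1 of 2 hepatocyte markers (Apob) also had one in each library. A promoter peak alone therefore does not name a cell type. In bulk tissue, fewer cells with an open site and less opening per cell cannot be told apart.

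The 3 loci differed widely in how much open chromatin surrounded them. The Mir1a-1/Mir133a-2 locus held 35 and 22 peaks in replicates 1 and 2, 28.5 ± 9.19 (SD, n = 2). The Mir1a-2/Mir133a-1 locus held 8 and 4, 6 ± 2.83 (SD, n = 2), and the Mir206/Mir133b locus 2 and 2. Both libraries gave this order. Summed signal was 32.2 and 26.0 at Mir1a-1/Mir133a-2, 29.1 ± 4.35 (SD, n = 2). It was 6.92 and 2.88 at Mir1a-2/Mir133a-1, 4.90 ± 2.86 (SD, n = 2). At Mir206/Mir133b it was 1.06 and 0.846, 0.955 ± 0.155 (SD, n = 2). The order of the loci was the same in both libraries, and the ranges of no pair of loci overlapped in number of peaks or in summed signal. The Mir1a-1/Mir133a-2 locus alone held 77.8 and 78.6% of the peaks. Footprints followed the same order, with 101 and 49, then 13 and 3, then 1 and 0.

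**Figure D1:**
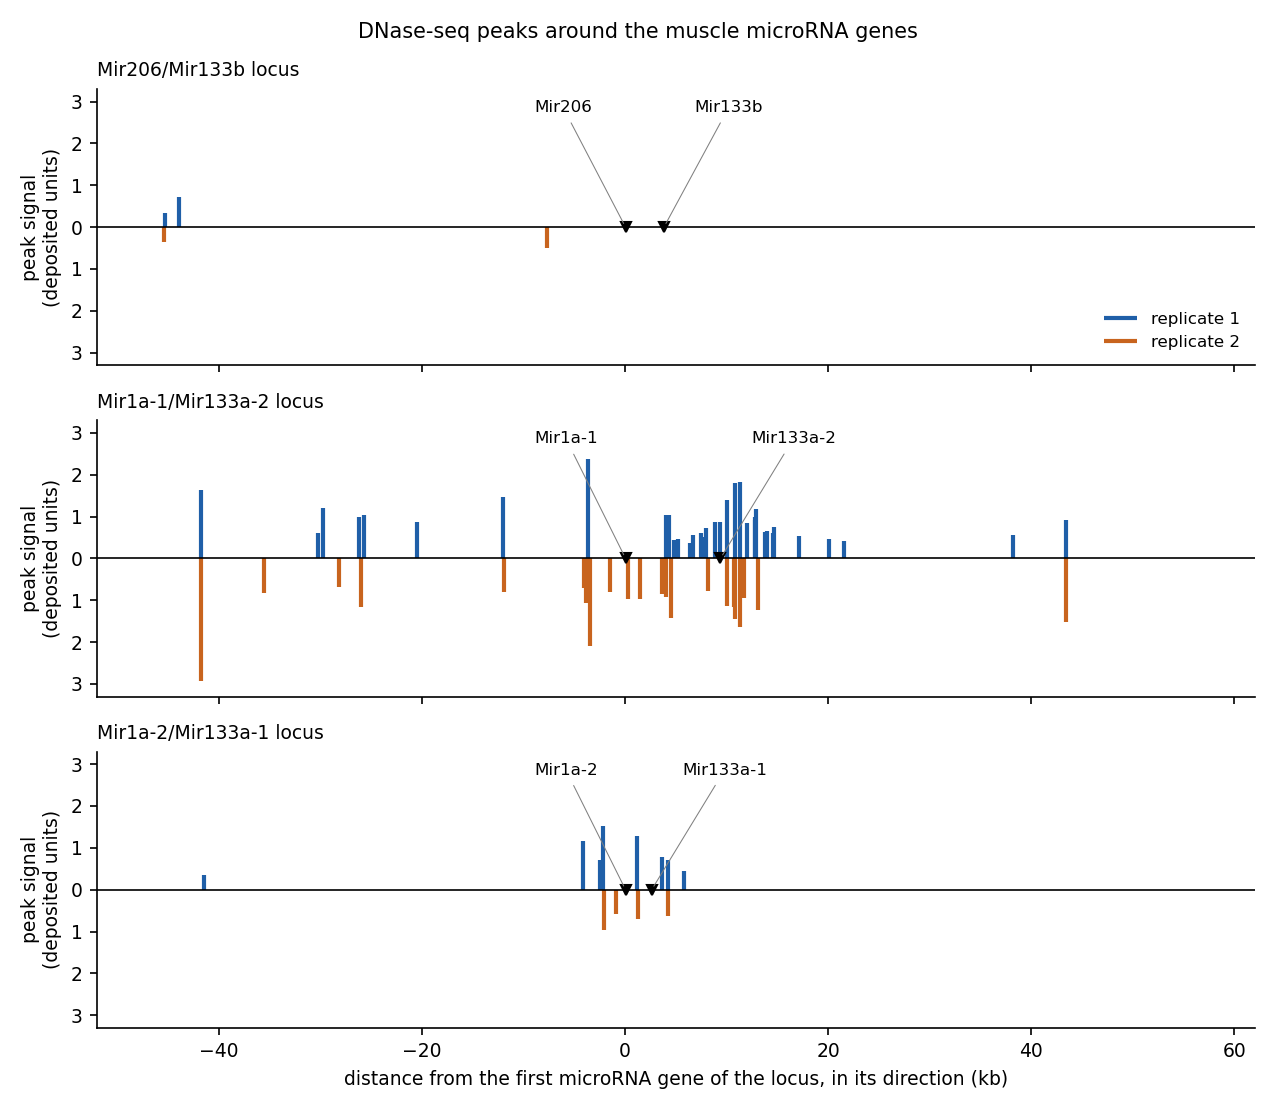
Peaks at the 3 loci, placed by the distance of the peak centre from the first microRNA gene (kb, negative is upstream) and drawn as lines to their deposited signal, replicate 1 upward and replicate 2 downward. Black triangles mark the microRNA genes. Mir1a-1/Mir133a-2 carries 35 and 22 peaks, Mir1a-2/Mir133a-1 carries 8 and 4, and no peak lies downstream of Mir206 in either library.

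Mir1a-1 (ENSMUSG00000070144.1, chr2:180389048-180389124, + strand) and Mir133a-2 (ENSMUSG00000065460.1, chr2:180398379-180398482, + strand) lie in an intron of the RefSeq noncoding RNA Mir1a-1hg, chr2:180385604-180401802, the host from which both hairpins can be cut. The antisense noncoding RNA B230312C02Rik starts at 180385885 on the other strand, so the starts lie at -3.44 and -3.16 kb from Mir1a-1. Peaks of the 2 libraries merged into 37 regions, of which 12 were found in both, 16 in replicate 1 alone and 9 in replicate 2 alone. Counted as peaks, 13 in each library overlapped a peak of the other, or 37.1% of those in replicate 1 and 59.1% of those in replicate 2. The same shares over all peaks of the libraries, and over all footprints, are not given here. No count of shared peaks, regions or footprints is therefore read as a trait of a locus. Positions below are centres of the merged regions relative to the start of Mir1a-1, negative upstream.

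The host gene start was open in both libraries. The region at -3.58 kb (chr2:180385201-180385740) had a signal of 2.37 in replicate 1 and 2.08 in replicate 2, 2.23 ± 0.203 (SD, n = 2). Its intervals overlapped on the deposited scale but not after division by the library median, which gave 3.52 and 2.14. These signals stood above 86.7 and 76.4% of all peaks in their libraries. The edges differed between libraries. The peak of replicate 2 covered the host start, while that of replicate 1 ended 84 bp before it. The lowest deposited q-value in the region was 1.09e-13 in replicate 1 and 2.82e-12 in replicate 2, and positions listed at a q under 0.05 covered all 540 bp of it in both. Replicate 2 had a separate peak just upstream, at -3.91 kb with a signal of 1.06. Replicate 1 had no peak there but listed all 120 bp of it. Both libraries thus listed the same stretch and divided it into peaks differently.

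The RefSeq promoter window of Mir1a-1hg (GRCm38.p6, chr2:180385354-180385653, + strand, 250 bases before the start and 50 after) is shown because 3 footprints found in both libraries fall in it. E-boxes, the site of MyoD-type factors (CANNTG, searched on both strands), are in capitals. No MEF2, CArG or MEF3 (TCAGGTT) match lay in this window.
Mir1a-1hg promoter: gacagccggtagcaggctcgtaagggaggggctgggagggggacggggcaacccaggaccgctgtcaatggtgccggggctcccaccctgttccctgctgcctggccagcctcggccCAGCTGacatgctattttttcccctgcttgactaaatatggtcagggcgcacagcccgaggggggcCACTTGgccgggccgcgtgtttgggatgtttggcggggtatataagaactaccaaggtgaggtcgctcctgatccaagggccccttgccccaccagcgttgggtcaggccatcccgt
The 100 bases before it (chr2:180385254-180385353) are shown because they lie in the peak of replicate 1. Their capitals mark a TEAD match (GGAATG) at -350 and a MEF2 match at -278 from the host start.
Mir1a-1hg upstream: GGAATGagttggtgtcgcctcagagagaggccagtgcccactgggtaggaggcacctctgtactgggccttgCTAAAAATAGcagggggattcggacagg
The first E-box, CAGCTG, the form that MyoD and myogenin prefer, spans 180385471 to 180385476 and begins at -133 from the start. A footprint touched it in both libraries, 7 bp wide in each. The second E-box, at 180385537 to 180385542, was also touched in both, by a footprint of 7 bp in replicate 1 and 21 bp in replicate 2. The third shared footprint lay just inside the transcript and was 19 and 27 bp wide, and none of the 12 motifs searched touched it. Of the 3, the last 2 lay outside the peak of replicate 1 though inside that of replicate 2. The stretches around these 2 footprints follow (+ strand), with the bases in the footprint of either library in capitals.
Footprint over the second E-box, chr2:180385502-180385581: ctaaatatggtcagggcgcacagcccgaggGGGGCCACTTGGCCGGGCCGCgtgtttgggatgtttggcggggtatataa
Footprint inside the host transcript, chr2:180385584-180385663: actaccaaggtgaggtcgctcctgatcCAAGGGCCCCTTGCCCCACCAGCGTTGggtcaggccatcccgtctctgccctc
An E-box was present in 72.3% of 32851 RefSeq promoter windows, CAGCTG (a form counted within the E-boxes) in 16.3%, and a MEF2 match in 0.557%. A match describes letters only.

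**Figure D2:**
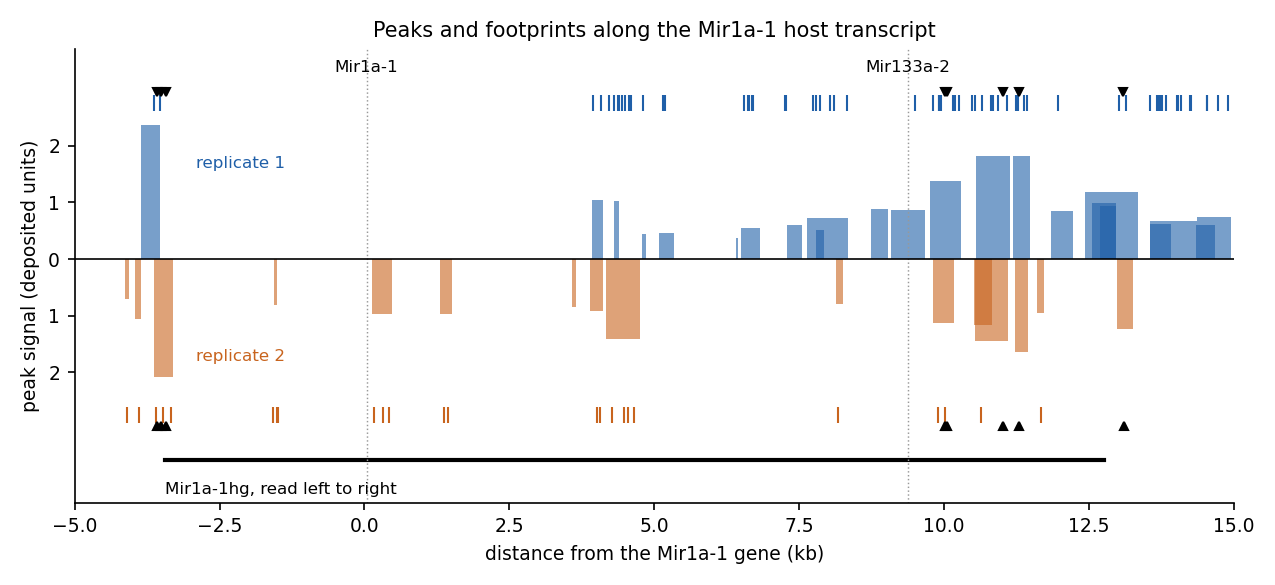
Peaks (boxes, true width, height in deposited signal) and footprints (ticks) from 5 kb before to 15 kb after the Mir1a-1 gene, replicate 1 above and replicate 2 below the line. Triangles mark footprints that overlap between libraries, the black bar is the RefSeq host transcript, and dotted lines mark the 2 microRNA genes. Both libraries have their high peak at the host start and a group of peaks just after Mir133a-2, while the peaks nearest Mir1a-1 are in replicate 2 alone.

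Upstream of the host gene, 3 regions were shared. The farthest, at -41.7 kb (chr2:180347201-180347400, intergenic), was the strongest peak of the locus in replicate 2, with a signal of 2.92 against 1.63 in replicate 1. Its mean was 2.28 ± 0.912 (SD, n = 2), and the intervals did not overlap, although they did after division by the library median. It held a wide footprint, 25 bp in replicate 1 and 27 bp in replicate 2, with a match to the CTCF consensus at 180347309 to 180347320. CTCF is a factor that binds at domain borders. Its site was the single CTCF match among the regions of the 3 loci, and 4.89 and 5.09% of all peaks in the libraries held one in the central 150 bp. The sequence is on the + strand, with footprint bases in capitals.
CTCF match, chr2:180347273-180347352: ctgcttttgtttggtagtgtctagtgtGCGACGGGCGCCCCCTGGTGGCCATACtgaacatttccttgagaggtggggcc
The RefSeq noncoding gene Gm52543 starts nearby, at -42.6 kb. At -25.8 kb (chr2:180362781-180363640) the signals were 1.04 and 1.17, 1.11 ± 0.092 (SD, n = 2). At -12.0 kb (chr2:180376821-180377260), in an intron of B230312C02Rik, replicate 1 was higher, at 1.48 against 0.795. The signals of the -25.8 kb region thus lay within counting error of each other, and those at -12.0 kb did not.

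Downstream of Mir1a-1, the highest signal of each library lay between Mir133a-2 and the end of the host gene, with further peaks on both sides of that stretch. At +10.0 kb (chr2:180398801-180399340) the signals were 1.38 and 1.13. They were 1.81 and 1.45 at +10.8 kb (chr2:180399572-180400180). Both lie in the host gene's intron. At +11.3 kb (chr2:180400241-180400540) they were 1.82 and 1.63, 1.72 ± 0.130 (SD, n = 2). The region at +12.9 kb (chr2:180401481-180402400), at the host gene's end, had 1.18 and 1.23. In each of these 4 regions the intervals of the libraries overlapped on the deposited scale, and in none of them after division by the library median, where replicate 1 was higher. The lowest q-value of the locus was in this group, 3.59e-27 at +11.3 kb in replicate 1, where replicate 2 had 5.46e-07. Closer to Mir1a-1, the region at +4.46 kb (chr2:180393221-180393800) was higher in replicate 2, at 1.42 against 1.03, beyond the intervals, although division by the library median turned that order. The remaining shared regions of the host gene, on either side of it, had means of 0.985 ± 0.088 and 0.751 ± 0.050 (SD, n = 2). Far downstream, at +43.5 kb (chr2:180432401-180432600, intergenic), signals were 0.911 and 1.53, again higher in replicate 2 and beyond the intervals, although within them after that division.

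Sequences are shown for the intronic region of highest mean signal and for the middle of the region at +4.46 kb, both on the + strand with E-boxes in capitals.
Region at +11.3 kb, chr2:180400316-180400465: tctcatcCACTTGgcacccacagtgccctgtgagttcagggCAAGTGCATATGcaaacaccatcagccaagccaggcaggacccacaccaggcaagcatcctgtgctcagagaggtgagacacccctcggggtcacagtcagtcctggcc
Region at +4.46 kb, chr2:180393436-180393585: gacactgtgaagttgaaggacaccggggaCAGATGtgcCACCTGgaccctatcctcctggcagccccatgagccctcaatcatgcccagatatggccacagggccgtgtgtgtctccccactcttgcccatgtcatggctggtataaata
The whole +4.46 kb region of 580 bp held 9 E-boxes, and 3 of them were CAGCTG. The region at +11.3 kb held 4 in 300 bp, none of them CAGCTG. Wide footprints were shared at +11.0 kb (29 bp in replicate 1 and 25 bp in replicate 2) and at +43.4 kb (40 and 33 bp). They are shown with footprint bases in capitals.
Footprint at +11.0 kb, chr2:180400029-180400108: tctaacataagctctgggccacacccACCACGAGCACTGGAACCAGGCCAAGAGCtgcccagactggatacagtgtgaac
Footprint at +43.4 kb, chr2:180432458-180432537: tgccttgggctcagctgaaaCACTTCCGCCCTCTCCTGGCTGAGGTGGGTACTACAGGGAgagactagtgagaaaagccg
None of the 12 motifs touched the first. A GC box (GGGCGG), the site of SP-type factors, touched the second. In all, 13 footprints were shared at this locus, out of 101 in replicate 1 and 49 in replicate 2. An E-box was touched by 4 of these 13, with the footprint bases of both libraries joined. The same share over all shared footprints of the libraries was not computed.

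Many peaks were found in 1 library alone, and how this compares with all 97499 and 61664 peaks of the libraries is not given here. In replicate 1, 85 of 101 footprints lay inside its own peaks, and in replicate 2 47 of 49 did. From +14.3 to +21.5 kb replicate 1 alone had peaks, starting with a region of 1405 bp built from 4 overlapping peaks (chr2:180402596-180404000) that held 15 of its footprints and reached a signal of 0.745. The strongest region in replicate 1 alone stood at -29.8 kb, with a signal of 1.19, and replicate 2 listed 6 bp of it at a q under 0.05. The strongest in replicate 2 alone was the one at -3.91 kb beside the host start. Over the Mir133a-2 hairpin itself, replicate 1 had a peak of 0.864 that covered all 104 bases of the gene. The nearest peak of replicate 2 began 378 bp downstream, with a signal of 1.13. Nearest to Mir1a-1, replicate 2 had a peak 48 bp downstream, with a signal of 0.966. Replicate 1 had none closer than the host start, 3527 bp upstream, and listed no position within 1 kb of Mir1a-1. Peaks covered 9993 bp of the window in replicate 1 and 4806 bp in replicate 2.

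Mir1a-2 (ENSMUSG00000106348.1, chr18:10785481-10785552, - strand) and Mir133a-1 (ENSMUSG00000065399.2, chr18:10782909-10782976, - strand) lie in an intron of Mib1 on its opposite strand. Mib1 encodes a ubiquitin ligase that acts on Notch ligands. Their host RNA, Mir133a-1hg, starts at -0.331 kb in GENCODE and at -5.84 kb in RefSeq, counted from Mir1a-2, and Mir1b overlaps Mir1a-2 on the other strand. The open chromatin was compact. All 4 peaks of replicate 2, and 7 of the 8 of replicate 1, were centred between -4.19 and +5.82 kb from the start of Mir1a-2. The remaining peak of replicate 1 was weak, 0.349 at -41.4 kb. Of 9 merged regions, 3 were found in both libraries, 5 in replicate 1 alone and 1 in replicate 2 alone.

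The strongest region of the pair, at -2.15 kb (chr18:10787581-10787820), had signals of 1.51 and 0.966, 1.24 ± 0.388 (SD, n = 2). RefSeq places it in an exon of Mir133a-1hg. The region at +1.21 kb (chr18:10784221-10784460), between both hairpins, had 1.28 and 0.709, 0.993 ± 0.402 (SD, n = 2). In these 2 regions the intervals did not overlap. At +4.23 kb (chr18:10781228-10781409) the signals were 0.698 and 0.632, and the intervals overlapped on the deposited scale alone. That last region is 86.8% repeat-masked sequence. All 3 shared regions were thus higher in replicate 1. Division of each signal by its library's median could not turn that order, because the median of replicate 1 is the lower. It moves every region towards replicate 1. At the Mir1a-1/Mir133a-2 locus 6 of the 12 were higher in each library, but 10 in replicate 1 and 2 in replicate 2 after that division, the 2 being those at -41.7 and +43.5 kb. A shared footprint at +1.27 kb was 25 bp wide in replicate 1 and 24 bp in replicate 2 and touched an E-box in both. The other, at -2.12 kb, was 12 and 10 bp wide. In replicate 1 it met a RUNX match (TGTGGT) by 1 bp, and in replicate 2 it met none of the motifs.

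The strongest region in replicate 1 alone, at -4.19 kb, had a signal of 1.17, above 71.4% of its peaks, and replicate 2 listed none of its positions. The one region in replicate 2 alone, at -0.916 kb, had a signal of 0.572. It lay 535 bp from the GENCODE start of the host RNA, and no peak of replicate 1 lay within 1 kb of that start. The RefSeq start had no peak within 1 kb in either library. Nearest peaks stood 1020 and 866 bp from Mir1a-2, and 844 and 1245 bp from Mir133a-1. By the shorter peak lists these were 1020 and 2083 bp, and 911 and 4659 bp. The Mib1 promoter, 60.0 kb away and outside the window, had signals of 6.60 and 4.70, both above the strongest region of the pair.

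**Figure D3:**
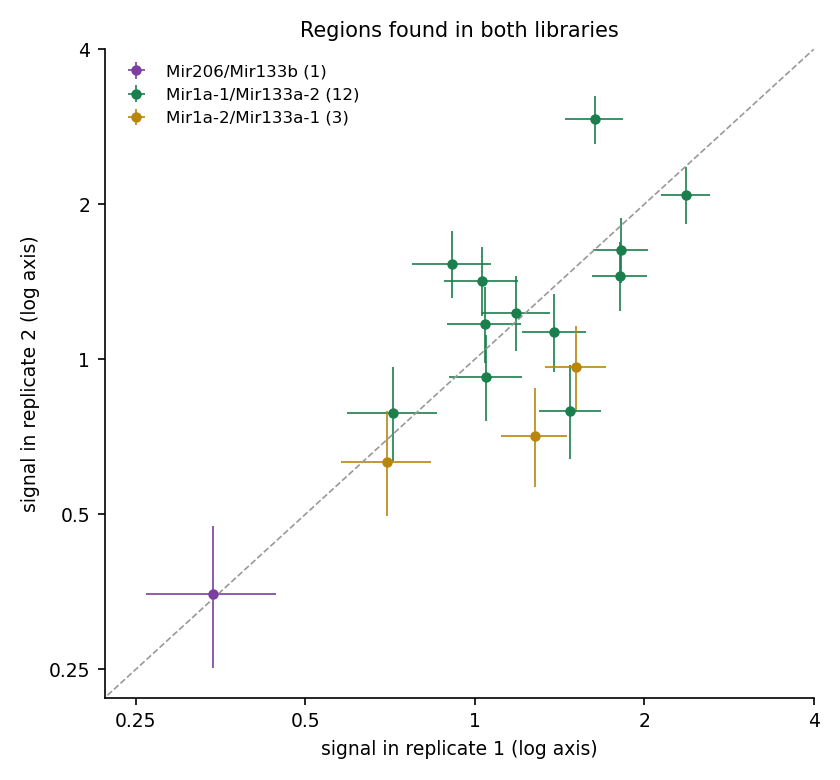
Signal in replicate 1 (x) and replicate 2 (y), both on log axes, of the 16 regions found in both libraries, coloured by locus, with 95% Poisson intervals as bars and the line of equal signal dashed. The 3 regions of Mir1a-2/Mir133a-1 lie below the line, and the 12 of Mir1a-1/Mir133a-2 lie on both sides of it, 6 on each. Division by the library median, which is lower in replicate 1, moves every region towards replicate 1 and gives 10 and 2.

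Mir206 (ENSMUSG00000065559.1, chr1:20679010-20679082, + strand) and Mir133b (ENSMUSG00000065480.1, chr1:20682769-20682887, + strand) lie in the noncoding RNA that GENCODE calls Gm28653 and RefSeq Lincmd1. It is known as a cytoplasmic sponge for miR-133 and miR-135 in differentiating muscle cells. Little open chromatin was detectable there at this depth. Each library had 2 peaks. The nearest peak to Mir206 was 43829 bp upstream in replicate 1 and 7671 bp upstream in replicate 2. For Mir133b the distances were 47588 and 11430 bp. The peak of replicate 2 was not in its shorter list, by which the nearest lay 141038 bp from Mir206 and 137233 bp from Mir133b. Within 1 kb of either hairpin, and of the host start at 20669882 (-9.13 kb), no position was listed at a q under 0.05 in either library. No peak lay downstream, where the cytokine gene Il17a starts at +51.9 kb.

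The 3 regions of this window are shown in full (+ strand), since they hold all peaks of both libraries there. Positions listed at a q under 0.05 covered 499 bp of the window in replicate 1 and 398 bp in replicate 2. Of these, 323 and 181 bp lay in peaks. Capitals mark E-boxes, and in the second also a TEAD match in reverse complement (CATTCC).
Shared region at -45.3 kb, chr1:20633601-20633720: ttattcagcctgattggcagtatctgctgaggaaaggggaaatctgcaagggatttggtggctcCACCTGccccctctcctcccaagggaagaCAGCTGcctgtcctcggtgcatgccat
Replicate 1 region at -43.9 kb, chr1:20634941-20635180: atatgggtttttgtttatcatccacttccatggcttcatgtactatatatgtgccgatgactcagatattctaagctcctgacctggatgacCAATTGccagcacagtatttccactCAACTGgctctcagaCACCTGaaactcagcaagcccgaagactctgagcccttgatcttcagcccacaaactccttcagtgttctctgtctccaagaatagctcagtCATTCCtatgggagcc
Replicate 2 region at -7.72 kb, chr1:20671237-20671338: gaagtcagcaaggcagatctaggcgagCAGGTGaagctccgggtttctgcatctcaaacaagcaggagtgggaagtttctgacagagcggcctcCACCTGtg
The shared region was weak, at 0.343 in replicate 1 and 0.350 in replicate 2, 0.347 ± 0.00514 (SD, n = 2). These stood above 15.4 and 9.99% of the peaks in their libraries, and the lowest q-values were 0.00304 and 0.0274. The region at -43.9 kb had a signal of 0.722 in replicate 1, a lowest q-value of 4.89e-08 and the 1 footprint of the locus, and replicate 2 listed none of its positions. The region at -7.72 kb, in an intron of Lincmd1 and centred 1406 bp after its start, had a signal of 0.496 in replicate 2, a lowest q-value of 0.00809 and no listed position in replicate 1. The element closest to Mir206 therefore rested on 1 library and on a weak peak.

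The Lincmd1 promoter window (RefSeq, GRCm38.p6, chr1:20669632-20669931, + strand) is shown because it carries muscle motifs without a peak. Capitals mark 2 E-boxes, at -195 and +16 from the start, and a MEF2 match at -63. The second E-box is CAGCTG.
Lincmd1 promoter: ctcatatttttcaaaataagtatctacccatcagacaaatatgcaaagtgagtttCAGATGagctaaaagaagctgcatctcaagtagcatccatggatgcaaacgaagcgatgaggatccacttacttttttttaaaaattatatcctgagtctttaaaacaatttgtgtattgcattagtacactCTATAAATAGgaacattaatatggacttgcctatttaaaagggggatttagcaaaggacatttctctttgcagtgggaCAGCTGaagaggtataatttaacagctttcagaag
MEF2, a factor family that acts with MyoD and myogenin, had a match in 0.557% of promoter windows, as given above. No peak, footprint or listed position overlapped this window in either library.

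Set against all annotated microRNA genes, the members ranged from the top to below the middle. The median microRNA gene had 5 peaks within 50 kb in replicate 1 and 3 in replicate 2, and 16.3 and 24.8% had none. Mir1a-1 had more peaks than 99.5% of the genes in replicate 1 and 97.2% in replicate 2. Counting Mir1a-1 itself, 10 and 61 genes had as many or more. Mir1a-2 had more than 64.3 and 53.9%, and Mir206 more than 26.5 and 36.0%. The standing of Mir1a-1 was lower by summed signal, 89.1 and 87.7%, and near the middle by its strongest peak, 53.8 and 58.0%. Its locus was thus marked by many peaks of ordinary height. Of the 35 and 22 peaks, 9 and 2 overlapped another peak of their own library, where 2.74 and 5.46% of all peaks did. Merged within each library, they formed 29 and 21 regions, and the ranking was not repeated with merged peaks. Footprints near Mir1a-1 outnumbered those of 99.6 and 92.4% of the genes.

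**Figure D4:**
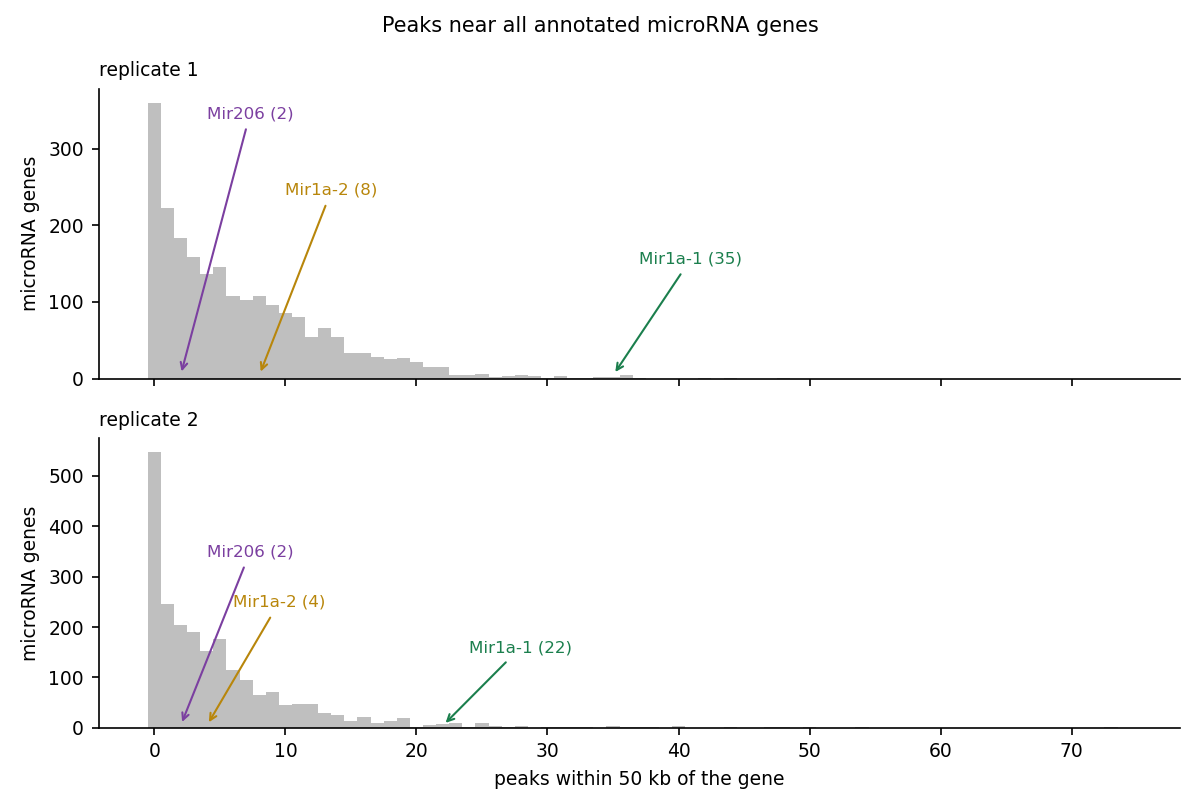
Number of peaks within 50 kb (x) of each annotated microRNA gene (y, number of genes), for replicate 1 above and replicate 2 below. Arrows give the first gene of each pair with its count: 35 and 22 for Mir1a-1, 8 and 4 for Mir1a-2, and 2 and 2 for Mir206.

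A peak within 1 kb was found for 2 of the 6 members in replicate 1, where 17.8% of microRNA genes had one, and for 3 in replicate 2, against 14.5%. In replicate 1 these were Mir133a-1 and Mir133a-2, and in replicate 2 Mir133a-2, Mir1a-1 and Mir1a-2. Mir133a-2 was the one member counted in both. The 6 genes stand at 3 loci and are not independent. By number of peaks and summed signal in both libraries, taken as log2(1 + value), the microRNA genes most like Mir1a-1 were Gm44463, Mir10b and Gm26220. Mir10b, in a Hox cluster, had 30 and 22 peaks. Those most like Mir1a-2 were Mir100 and Mirlet7a-2, which are neighbours with equal values, and Mir3099. Those most like Mir206 were Gm24542, Gm23215 and Gm22120, each with 2 and 2 peaks. The likeness is over 4 values from 2 libraries.

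E-boxes were the commonest of the 12 motifs searched. In the central 150 bp, 31 of 45 peaks in replicate 1 (68.9%) and 19 of 28 in replicate 2 (67.9%) held one, where 59.0 and 54.5% of all peaks in the libraries did. CAGCTG was in 14 peaks (31.1%) in replicate 1 and 3 (10.7%) in replicate 2, against 18.1 and 15.4%, so the libraries fell on opposite sides of their backgrounds. An E-box was touched by 19 of 115 footprints (16.5%) in replicate 1 and 9 of 52 (17.3%) in replicate 2, against 10.2 and 7.95% of all footprints. By locus, 3 of 3 merged regions at Mir206/Mir133b held an E-box, 27 of 37 at Mir1a-1/Mir133a-2 and 6 of 9 at Mir1a-2/Mir133a-1. All 16 regions found in both libraries held one over their whole width, which reaches 920 bp. The same shares over all merged regions of the libraries, and over all regions found in both, were not computed. These counts of regions are therefore not read as a trait of the loci. Over the whole width of each peak, 36 of 45 peaks (80.0%) and 20 of 28 (71.4%) held one, against 64.5 and 62.7% of all peaks. A MEF2 match was in 1 region, the host gene start of Mir1a-1. A GC box was in 1 of 45 and 1 of 28 peaks, against 17.3 and 22.2% of all peaks. Every peak at these loci lay over 1 kb from coding starts, while the shares over all peaks and footprints include those at promoters. Shares over peaks away from coding starts alone were not computed, for any motif. No CArG match, the site of SRF, and no NFI match was in any region, but these are rare, with CArG in 0.642 and 0.511% and NFI in 0.0913 and 0.0568% of all peaks. Wider regions hold more matches by length alone, and no test was made.

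Other microRNAs known from particular cell types gave a scale. Of 4 annotated microRNA genes of striated muscle, Mir486, which lies within Ank1, was overlapped by a peak in both libraries. Mir208a, Mir208b and Mir499, which lie within the myosin genes Myh6, Myh7 and Myh7b, had none within 1 kb in either. Across 29 annotated genes of 10 lists, 7 had a peak within 1 kb in both libraries and 19 in neither, where 13.1% of all microRNA genes had one in both and 80.8% in neither. Besides Mir486, the 7 were Mir145a of smooth muscle, Mir150 of lymphocytes, Mir124a-3 of neurons, Mir199a-2 of fibroblasts, and the widely expressed Mir23a and Mir24-2. Other genes of the same lists had none in either library, namely Mir124a-1, Mir124a-2 and Mir9-2 of neurons, Mir223 of blood, Mir214 of fibroblasts, and the widely expressed Mir21a, Mir16-1, Mir17 and Mirlet7b. None was found in either library for Mir126a of endothelium, Mir122 of liver, Mir375 of pancreas or the epithelial genes Mir200a, Mir200b, Mir429 and Mir205. No list of more than 1 gene had a peak near every member in both libraries.

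The genes that make microRNAs were open throughout. All 10 promoters of the processing machinery had a peak in both libraries, against the 66.5 and 64.2% given above, with a median signal of 7.20 and 5.76. The medians over all protein-coding genes were 1.48 and 1.54. Dicer1, which cuts the hairpin to its mature length, had 9.14 and 8.41, 8.77 ± 0.517 (SD, n = 2). Drosha, which frees the hairpin from its transcript, had 9.32 and 5.37. Dgcr8, its partner, had 9.78 and 5.78, and Ago2, which holds the mature strand, had 4.75 and 4.18.

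Of 20 genes known as targets of miR-1, miR-206 or miR-133, 19 had a promoter peak in replicate 1 and 18 in replicate 2, against 66.5 and 64.2% of all protein-coding genes. Hdac4, a repressor of MEF2 and a target of miR-1, had 13.1 and 8.57. Rhoa and Cdc42, small GTPases named as miR-133 targets, had 9.12 and 6.17, and 9.28 and 7.91. Pax7, the satellite cell factor, had a low signal of 0.686 and 0.931, and Gja1, the gap junction gene connexin 43, had 0.958 and 1.21. Neither library had a promoter peak at Pax3, and Hand2 had one in replicate 1 alone. Among these 20 genes the promoter signal thus ran from no peak to 13.1 in replicate 1 and 8.57 in replicate 2. Accessibility of a promoter does not measure its transcript, and no RNA was measured here.

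Of 11 genes known as regulators of these loci, 11 and 10 had a promoter peak, again against 66.5 and 64.2%. Mef2a had 8.85 and 7.37, and Mef2d 6.91 and 5.28. Srf, a factor that acts at CArG sites, had 5.87 and 3.88. Myod1 was lower, at 2.28 and 1.73, 2.00 ± 0.390 (SD, n = 2). Myog, which encodes myogenin, had 1.00 and 1.09. Myf5, the early myogenic factor, had 0.450 in replicate 1 and none in replicate 2. Myf6, the family member known from mature fibres, had 0.609 and 0.820.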

How the data were processed

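DNase-seq of 2 libraries was used as deposited. Per the labels, the authors worked in mm10; the tools for alignment, peaks and footprints were not given in the sources used here. Each library has 2 deposited peak lists with a signal per peak; the longer was used, because the rule named it. The deposited tables also give a q-value per position (all listed values under 0.05), and footprints carry a constant p-value of 0.01, which was not used. Computed here, with Python 3.11.15, pandas 2.3.3, numpy 2.4.6 and pysam 0.24.0: peaks overlapping each window by at least 1 bp, merged regions, nearest distances, and motif matches on both strands in the central 150 bp. GENCODE M21 gave the genes, and RefSeq (GRCm38.p6) the host RNAs and sequences. The counting was tested on simulated data. The named regions were the 6 genes, up to 10 shared regions of highest mean signal per locus, the nearest peaks and the strongest in 1 library alone. Members and lists were chosen with earlier results of these data known. No test was possible with 1 group of 2. Library depth was read from the signal steps. Alternatives were the shorter peak list, other windows and overlaps, each library alone, and overlapping peaks merged and intervals divided by the library median, the last 2 chosen after seeing the data.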

Additional observations from a re-analysis of the deposited data

How the results depend on the processing

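Without a test, a value was called moved when it changed by more than the SD between libraries, or a count by more than 1.5 times. Leaving 1 of 2 libraries out moves a mean by less than their SD by construction, so that limit says nothing about stability, and each library's value stands in the report. Footprint counts ran from 0 to 1 at Mir206/Mir133b, 49 to 101 at Mir1a-1/Mir133a-2 and 3 to 13 at Mir1a-2/Mir133a-1. Of 93 values under other settings, 51 stayed within the limits. All values here are means of the 2 libraries. The shorter peak list left 0.5, 18.5 and 3 peaks at Mir206/Mir133b, Mir1a-1/Mir133a-2 and Mir1a-2/Mir133a-1, and 0, 8.5 and 1 shared peaks. Under it, summed signal was 0.361 at Mir206/Mir133b and 21.5 at Mir1a-1/Mir133a-2, and 1.5 members had a peak within 1 kb. With 20 kb on each side, Mir206/Mir133b kept 0.5 peaks, a summed signal of 0.248, 0 shared peaks and 0 footprints, and Mir1a-1/Mir133a-2 a summed signal of 21.6. With 100 kb, summed signal was 1.19, 33.7 and 16.0, and Mir206/Mir133b had 2 footprints. Mir1a-2/Mir133a-1 then had 12 peaks, 7 shared peaks and 25.5 footprints, with the Mib1 promoter inside its window. Only footprints shared by the libraries left 0, 13 and 2. With peak centres within 100 bp, 7 peaks were shared at Mir1a-1/Mir133a-2. A limit of 500 bp gave 1.5 members with a peak and one of 5000 bp gave 4. Over whole peaks, 75.7% held an E-box, where the share over all peaks was also higher than in the central 150 bp. The share of microRNA genes with fewer peaks was 47.4% for Mir206/Mir133b and 77.5% for Mir1a-2/Mir133a-1 among genes over 10 kb from coding starts. For 20 kb windows it was 19.9% and 83.7%, and for 100 kb windows it was 22.2% at Mir206/Mir133b and 94.9% at Mir1a-1/Mir133a-2. Nearest distances by the shorter lists averaged 92434 bp for Mir206, 92410 bp for Mir133b, 1552 bp for Mir1a-2 and 2785 bp for Mir133a-1. After division by the library median, intervals overlapped at 5 of 12 regions found in both libraries at Mir1a-1/Mir133a-2, against 8, and at 0 of 3 at Mir1a-2/Mir133a-1, against 1. For the other moved values the cause was not tested. The Mir1a-1/Mir133a-2 locus had the most peaks and summed signal under each setting run.

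No paired analysis was possible because the series has 1 group only. Read as tags, the weakest peaks at these loci had signals of 58 in replicate 1 and 41 in replicate 2. The labels do not state over which stretch of a peak such tags would be counted, so these need not be totals per peak. Peaks found in 1 library alone were not shown to differ between animals, and the part of depth in them was not tested. The lists hold positions that passed the authors' callers, so a stretch without a peak is not shown to be closed.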
